A study of Homo sapiens and Mus musculus with 99 samples.

Results

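The wild-type extract of the mould *Alternaria alternata* was given to mice in the experiment called Lung3, and its effect on lung epithelial cells was read by RNA sequencing. The comparison holds 4 of the 99 libraries of the series, chosen by their labels: 2 from mice given the extract labelled WT ALT and 2 from mice given the mock treatment, DPBS. Treatments were intranasal, cells were isolated 6 h later, and the libraries of a group are biological replicates per the submitters. Lung3 also holds 2 libraries each for extracts labelled aegs KO ALT and aegl KO ALT, which share the DPBS libraries. The sources used here do not state strain, sex, age or dose of extract. The epithelial cells are named by the labels only. The sources used here do not pair mouse IDs with names, so genes are described by Ensembl ID and position (mm10), and cell type markers and pathway lists were not analysed here.

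*Alternaria alternata* is a common airborne mould and a source of allergens tied to asthma. The airway epithelium is the first tissue that an inhaled extract meets, and it answers damage with alarm signals such as the cytokine IL-33. Pore-forming proteins open channels in the cell membrane and let ions pass. The series compares the extract with such proteins, Aeg-S and Aeg-L.

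The 8 Lung3 libraries held 29.6 to 38.8 M counted fragments, 29.6 and 33.0 M with WT ALT and 34.5 and 38.8 M with DPBS. On a principal component plot over all genes tested, the WT ALT libraries lay at −116 and −114 on the first axis, which carried 54.8% of the variance, and the other 6 libraries at 29.2 to 65.2. One mock library, DPBS 2, stood apart on the second axis, at 93.2 against −29.9 to 14.1 for the other 7. Its correlation across genes with the other 5 libraries not given WT ALT was 0.958 to 0.962, against 0.978 to 0.983 among those 5. Of genes with at least 1 CPM (counts scaled to library size by TMM), 2.18% differed at least 2-fold between the WT ALT libraries, and 15.5% between the DPBS libraries. Values without DPBS 2 are therefore given beside the calls, the X-linked shares, the runs, the comparison with Lung1 and the knockout extract totals. The other results are given with DPBS 2 included.

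**Figure D1:**
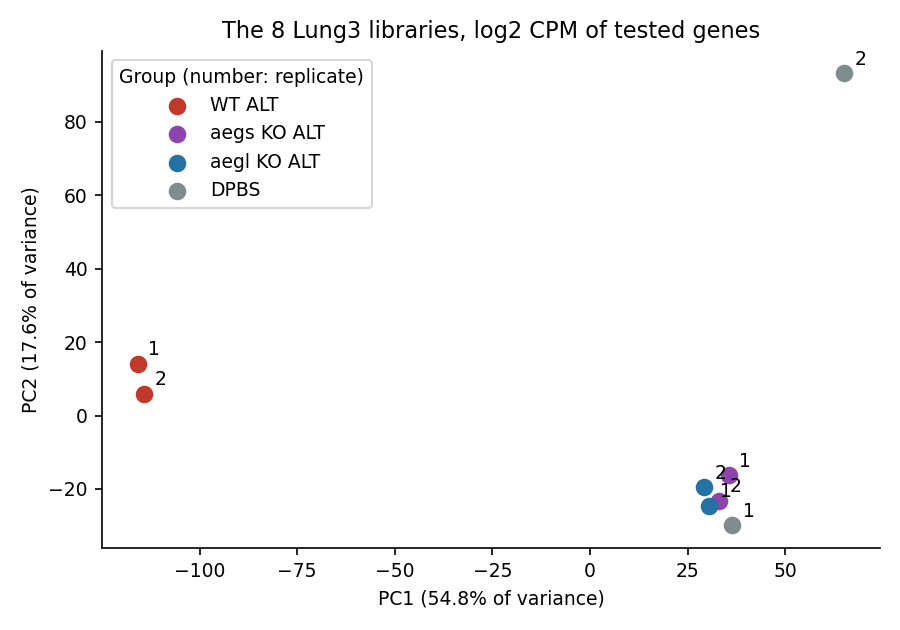
The 8 Lung3 libraries on the first 2 principal components of log2 CPM, one point per library with its replicate number, coloured by group. The WT ALT libraries lie at −116 and −114 on the first axis, and DPBS 2 lies at 93.2 on the second.

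The question of the comparison is what the extract does to lung epithelial cells within 6 h. Under WT ALT, 2956 of 19092 genes rose and 3583 fell against DPBS (15.5% and 18.8% of genes tested, edgeR's quasi-likelihood test at an adjusted p under 0.05). Of these, 2006 rose at least 2-fold and 2233 fell at least 2-fold (10.5% and 11.7%). Without DPBS 2, 1784 rose and 2126 fell at least 2-fold. Leaving out WT ALT 1 gave 1274 such rises, WT ALT 2 gave 1325, and DPBS 1 gave 3081. The balance of the 2 lists turned with DESeq2, at 2219 rises and 2119 falls, and with DESeq2 size factors, at 2151 and 2039. By fitted change, larger rises outnumbered larger falls. At least 8-fold, 475 genes rose and 147 fell, and at least 32-fold, 145 rose and 34 fell. For genes at 0 in a group the counts set only a lower bound on the fold. The last tier holds ENSMUSG00000110605.1, whose bound is a 23.7-fold fall. The tiers were not recounted with bounds. The median of the log2 change was −0.05 over all genes tested, 1.89 over the genes that rose at least 2-fold and −1.47 over those that fell at least 2-fold. With genes at 0 in a group set to their bound (91 of the first list, 26 of the second), these medians were again 1.89 and −1.47. In bulk RNA, fewer cells of a type and less RNA per cell cannot be told apart.

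Every called gene had WT ALT libraries that did not overlap the DPBS libraries, but so did many genes that were not called. Over all genes tested, called or not, 32.3% lay higher without overlap and 33.0% lower, where 15.5% and 18.8% were called. Without DPBS 2, 7997 genes were called in place of 6539. Of the 6539, 5873 (89.8%) were called again, all in the same direction. Leaving out WT ALT 1 gave 3228 calls, and leaving out WT ALT 2 gave 3323. Leaving out DPBS 1, so that DPBS 2 alone stood for the mock, gave 10266.

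The genes that moved took large shares of the libraries. Genes that rose at least 2-fold held 18.7% and 18.9% of the counts of tested genes in the WT ALT libraries, against 6.28% and 5.04% in the DPBS libraries. Genes that fell at least 2-fold held 7.61% and 8.15% with WT ALT, against 18.03% and 20.54% with DPBS. These shares describe the lists that the changes defined. In the 4 libraries given the aegs KO or aegl KO extract, the first list held 6.65% to 7.04% and the second 16.8% to 17.9%.

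The 4 gene IDs with the largest changes were followed through the libraries, the 2 with the highest and the 2 with the lowest fitted change among called genes whose higher group averaged at least 1 CPM. ENSMUSG00000002057.4 (chr11:78357577-78386558, minus strand, 9 merged exons) stood at 5.00 and 7.38 CPM in the WT ALT libraries and at 0 in both DPBS libraries. It was at least 149-fold higher, taking 3 counts over the DPBS group as the floor (adjusted p = 0.001311, edgeR). In the KO extract libraries it did not exceed 0.117 CPM. ENSMUSG00000022997.9 (chr15:98789857-98793837, plus strand, 4 merged exons) stood at 6.16 and 5.02 CPM with WT ALT and at 0 in both DPBS libraries. It was at least 134-fold higher (edgeR adjusted p = 0.0009601), but with DESeq2 the adjusted p was 0.08082, the highest over 9 alternatives that began at 2.814e-22. Its highest level in the KO extract libraries was 0.0879 CPM.

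Both IDs that fell most had low levels in the mock. ENSMUSG00000110605.1 (chr8:129263641-129282844, plus strand, 6 merged exons) had 0 counts in both WT ALT libraries, against 1.497 and 0.792 CPM in the DPBS libraries, and was at least 23.7-fold lower on the same floor (adjusted p = 0.0012, edgeR). In the KO extract libraries it lay between 1.32 and 1.89 CPM. ENSMUSG00000085124.1 (chr7:34438137-34520885, plus strand, 3 merged exons) had 0.0340 and 0 CPM with WT ALT, against 2.09 and 1.91 CPM with DPBS (adjusted p = 0.0006191, edgeR). That is 1 count against 144, a ratio of 0.00806 with a 95% exact interval of 0.000203 to 0.0456, which covers counting error only. A gene on the other strand overlaps it, and reads of the pair cannot be told apart in a library without strand. The WT ALT values of all 4 IDs lay outside the range of the other 6 Lung3 libraries.

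**Figure D2:**
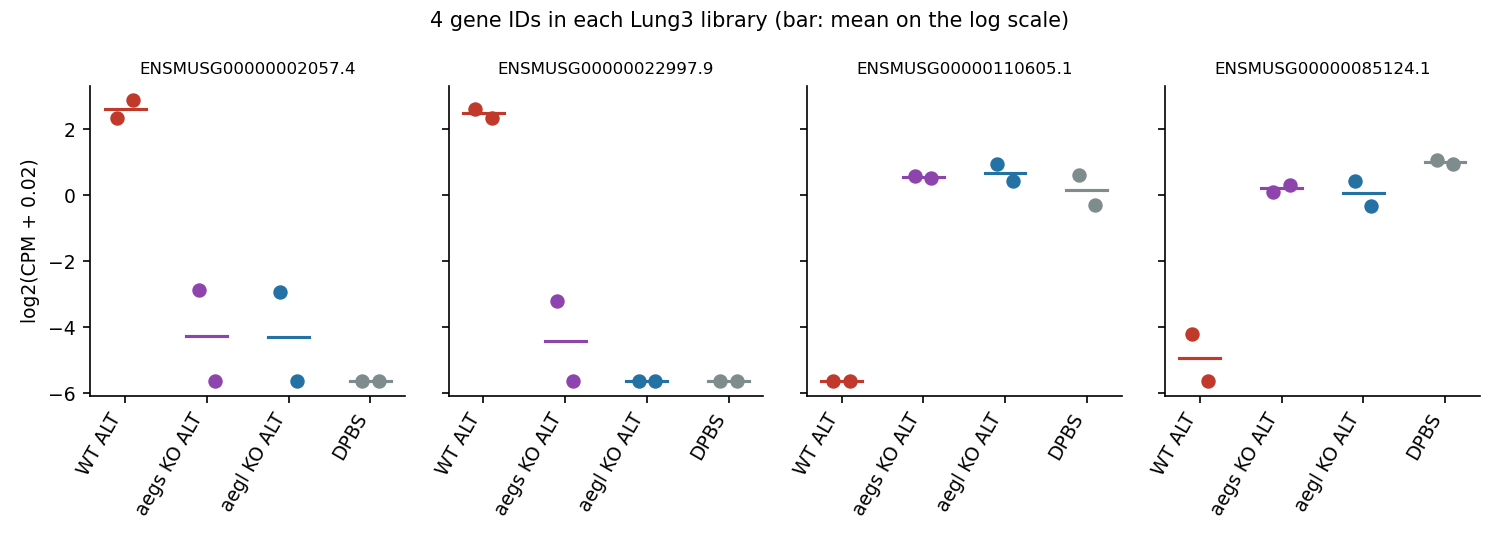
Level of the 4 gene IDs in each of the 8 Lung3 libraries, as log2(CPM + 0.02), one point per library with a bar at the mean of the group. The WT ALT points lie above those of all other groups for the first 2 IDs and below them for the last 2.

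The same IDs were read in other experiments of the series, each scaled on its own. Lung1 holds 3 libraries given the extract labelled ALT and 3 given DPBS. There, ENSMUSG00000002057.4 had 5.15, 3.59 and 3.50 CPM with ALT, against 0, 0.0561 and 0 with DPBS. ENSMUSG00000022997.9 had 5.55, 5.26 and 4.88 CPM with ALT and 0 in the 3 DPBS libraries. The 2 IDs that fell were low but not absent with ALT in Lung1. ENSMUSG00000110605.1 had 0.0308, 0.299 and 0.327 CPM, against 2.10, 2.13 and 1.76 with DPBS, and ENSMUSG00000085124.1 had 0.185, 0.0665 and 0.295 CPM, against 1.36, 0.757 and 1.73. In Lung2, the joined proteins Aeg-S/L gave ENSMUSG00000002057.4 9.10 and 7.22 CPM, against 0 in both DPBS libraries. Aeg-S alone and Aeg-L alone left it at 0 in all 4 libraries. ENSMUSG00000022997.9 had 2.62 and 2.90 CPM with Aeg-S/L, and at most 0.0574 CPM with either protein alone. In IL-33 knockout mice, ENSMUSG00000002057.4 had 3.16 and 1.06 CPM with ALT, against 0 and 0.0665 CPM with DPBS, which did not pass the test (adjusted p = 0.05463, edgeR). With Aeg-S/L it had 0.134 and 0.356 CPM there (adjusted p = 0.1696). ENSMUSG00000110605.1 had 1.89 and 2.97 CPM with ALT in these mice, against 4.28 and 2.57 CPM with DPBS (adjusted p = 0.5502, edgeR). ENSMUSG00000085124.1 had 0.266 and 1.36 CPM, against 2.60 and 2.44 CPM (adjusted p = 0.2239), and ENSMUSG00000022997.9 did not pass the low-count filter.

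Genes with almost no counts in the mock made up a group of their own. There were 35 genes with at most 3 counts summed over both DPBS libraries and at least 1 CPM on average with WT ALT. That rule uses the contrast, so their calls (35 of 35) are no further evidence. Their median level was 1.43 and 1.38 CPM in the WT ALT libraries, and the highest reached 8.57 CPM on average. In Lung1, 29 of them passed the low-count filter and 6 did not. The 29 had a median of 1.65 CPM with ALT, against 0.0700 CPM with DPBS. Near 0 in the mock, they entered that test through the ALT libraries, so the number called there is no support. The reverse group, at most 3 counts with WT ALT and at least 1 CPM with DPBS, held 9 genes. Summed over the 35 genes, the levels were 85.2 and 75.6 CPM with WT ALT, 2.42 to 3.40 CPM with the KO extracts, and 0.622 and 0.246 CPM with DPBS.

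Rises and falls were spread unevenly over the count classes. Among 625 genes with up to 0.1 CPM in DPBS, 36.5% rose at least 2-fold and none fell. Such genes passed the low-count filter only through libraries where they were higher, and a fall could not be seen, so the filter sets this share. Falls were most frequent among 2511 genes with 3 to 10 CPM, where 21.7% fell and 12.1% rose at least 2-fold. Among 3466 genes with 10 to 30 CPM, 19.6% fell and 8.08% rose. Above 100 CPM, 9.81% fell and 7.35% rose. These classes were set on the same DPBS libraries as the change, so chance scatter in DPBS moves genes between them and into a change at once.

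**Figure D3:**
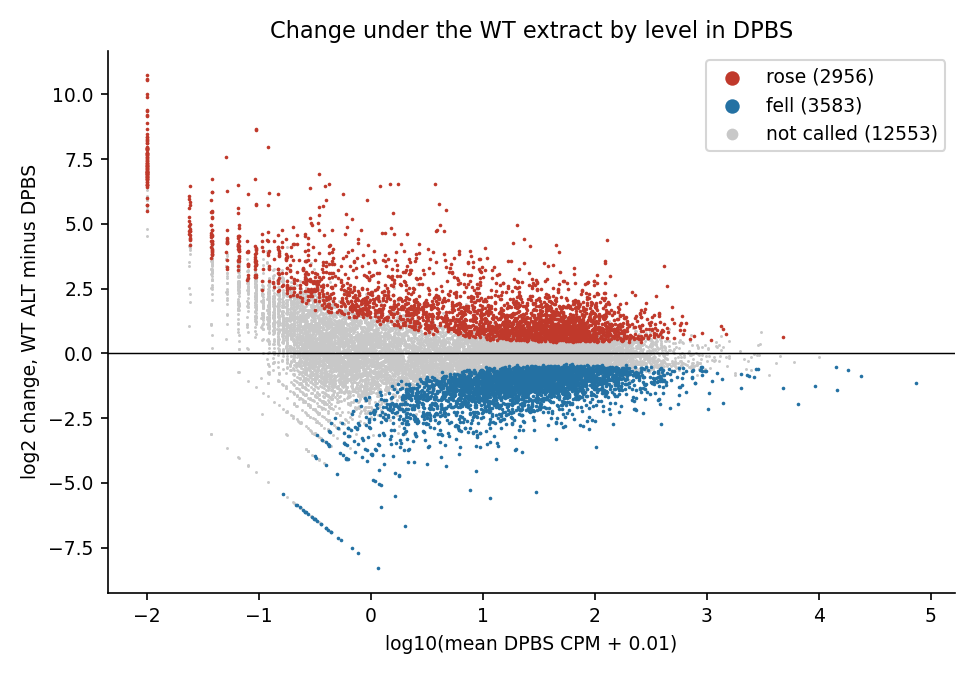
Fitted log2 change under WT ALT against the mean level in DPBS, as log10(CPM + 0.01), one point per tested gene, coloured by call. For genes at 0 in a group the counts set only a lower bound on the fold. The 2956 genes that rose reach further from 0 than the 3583 that fell, above all at the low levels on the left.

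Genes with the most counts in the mock fell more often than they rose. Of the 10 genes with the highest DPBS counts, 8 fell, 5 of them at least 2-fold, and none rose, where 18.8% of all genes tested fell and 15.5% rose. These 10 were picked on the same DPBS libraries as the contrast, so the counts are a description. Together they held 9.03% and 9.80% of all counts in the WT ALT libraries, against 16.2% and 19.6% in the DPBS libraries. The KO extract libraries held 15.2% to 16.8% on them. The first of the 10, at chr14:70520949-70524081, had 30911 and 35814 CPM with WT ALT, against 53339 and 95486 CPM with DPBS, a log2 change of −1.16 ± 0.26 (SE, edgeR adjusted p = 0.009236). DPBS 2 was the highest of the 8 libraries for it, and the KO extract libraries lay at 50063 to 54651 CPM. Among the 100 genes with the most DPBS counts, 31 fell, 6 rose and the rest were not called, whereas 14 fell and 35 rose among the 100 with the most counts with WT ALT. Counts here are not divided by gene length.

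The 16 mitochondrial genes that were tested had a median log2 change of −0.18, and 1 of them was called (adjusted p = 0.0398, edgeR), where 34.2% of all genes tested were called. They ranged from −1.08 to 0.65.

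Gene structure differed between the lists. The median exon length was 4043.5 bases for genes that rose at least 2-fold, 3372 bases for those that fell and 3586 bases for all genes tested. Among the 1910 genes with the longest exon sequence, 9012 bases and more, 13.6% rose and 6.18% fell at least 2-fold. Among 1914 genes with 2297 to 2911 bases, 9.04% rose and 16.3% fell. Single-exon genes formed 10.3% of the first list, 5.96% of the second and 14.0% of all genes tested. In Lung1 under ALT, 10.2% rose and 10.01% fell among the longest genes, and 13.2% rose and 14.98% fell among those with 2297 to 2911 bases. Among the shortest genes, 54 to 921 bases, 6.70% rose in Lung3 and 15.5% in Lung1. Rises were thus more frequent among the longest than the shortest genes in Lung3, and less frequent in Lung1. The Lung1 shares are over genes tested there, 1449 of the 1911 shortest and 1868 of the 1910 longest. The gene sets are thus unlike, and this difference between the experiments was not tested. Of single-exon genes outside the mitochondrial genome, 7.76% rose and 5.01% fell in Lung3, against 16.2% and 8.57% in Lung1. Fragment counts grow with length, so power to call a change grows with it too, and the part of length in these shares was not tested.

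The X chromosome held fewer rises than the autosomes. Of 595 X-linked genes tested, 24 rose (4.03%) and 97 fell (16.3%) at least 2-fold, whereas 10.7% of 18472 autosomal genes rose and 11.6% fell. Over single autosomes the shares ran between 9.004% and 12.52% for rises and between 8.41% and 14.3% for falls, so the X chromosome lay outside both ranges. Without DPBS 2 the X shares were 3.26% and 13.8%, against 8.73% and 10.1% for autosomes. Without WT ALT 1, 9.98% of X-linked genes fell at least 2-fold, against 7.76% of autosomal genes. With DESeq2 the shares of falls were 7.88% and 6.11%, there out of all genes with a count rather than those that passed the filter. In Lung1 under ALT, 5.46% of X-linked genes rose and 15.5% fell, against 12.9% and 12.2% on the autosomes. Under Aeg-S/L in Lung2, 6.30% rose and 10.9% fell on the X chromosome, against 11.5% and 10.7%. In both experiments the X share of rises lay below that of every autosome, but the share of falls lay within the autosome range. Chromosome 13 had 16.7% falls in Lung1, and chromosome 7 had 13.6% in Lung2. By count class, X-linked genes with 3 to 10 CPM in DPBS numbered 86, of which 0 rose and 24 fell, against 12.5% and 21.5% of 2423 autosomal genes. The 30 to 100 CPM class gave 3.23% and 20.2% of 124 X-linked genes, against 9.13% and 11.7%. Genes of a chromosome are not independent, so no test was made of these shares.

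Genes that moved also lay next to each other. Counting neighbours along a chromosome among tested genes, 9 runs of at least 5 genes rose at least 2-fold together and 1 such run fell. They held 57 genes, of which 21 overlap another annotated gene, and for these reads of neighbours may be shared. The runs were chosen by their change, so their Lung3 values are a description. In Lung1, 53 of the 57 were tested and 48 were called in the same direction, where 28.5% of all Lung1 genes were called higher and 30.1% lower. Without DPBS 2, when 1 library stood for the mock, most runs did not keep every gene called at least 2-fold. The median log2 change of each run, over the genes which that fit held, kept its direction. It lay between 1.44 and 4.74 in the rising runs and at −2.31 in the falling run. The largest drop was in the run on chr17, from 3.96 to 2.95.

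The longest run, at chr5:145265879-146204789, held 8 rising genes, none overlapping another. Their summed level was 48.4 and 47.8 CPM with WT ALT, against 12.7 and 9.80 CPM with DPBS, and the median log2 change was 3.07, with 3.06 in Lung1 over 6 genes. A run of 7 at chr11:83002158-83190216 summed to 322 and 261 CPM with WT ALT, against 64.1 and 152 CPM with DPBS. DPBS 2 was the higher of the pair there. Its KO extract libraries lay at 58.0 to 83.5 CPM, closer to DPBS 1. At chr2:167827693-168230591, 6 genes summed to 700 and 602 CPM with WT ALT, against 211 and 209 CPM with DPBS. Another 6 at chr14:46882854-47276857 summed to 144 and 153 CPM, against 30.1 and 33.0 CPM with DPBS.

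Other runs had fewer counts in the mock. At chr19:34550694-34650009, 5 genes, none overlapping another, summed to 69.9 and 87.4 CPM with WT ALT, against 3.50 and 4.59 CPM with DPBS. Their median log2 change was 3.82, and 3.84 in Lung1, where 5 of 5 rose (28.5% of all genes), under the limit given above for rising genes. At chr12:104214544-104414329, 5 genes summed to 31.5 and 31.0 CPM with WT ALT, against 2.83 and 3.30 CPM with DPBS. At chr17:13006846-13345880, where DPBS summed to 96.3 and 115.5 CPM, a single gene carried most of the sum. It had 532 CPM with WT ALT and 106 CPM with DPBS on average, a log2 change of 2.33 ± 0.17 (adjusted p = 6.8e-05, edgeR). The falling run, at chrX:53577087-53716773, had 5 genes at 13.2 and 12.1 CPM in sum with WT ALT, against 41.9 and 71.0 CPM with DPBS. All 5 fell in Lung1 too (30.1% of all genes).

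**Figure D4:**
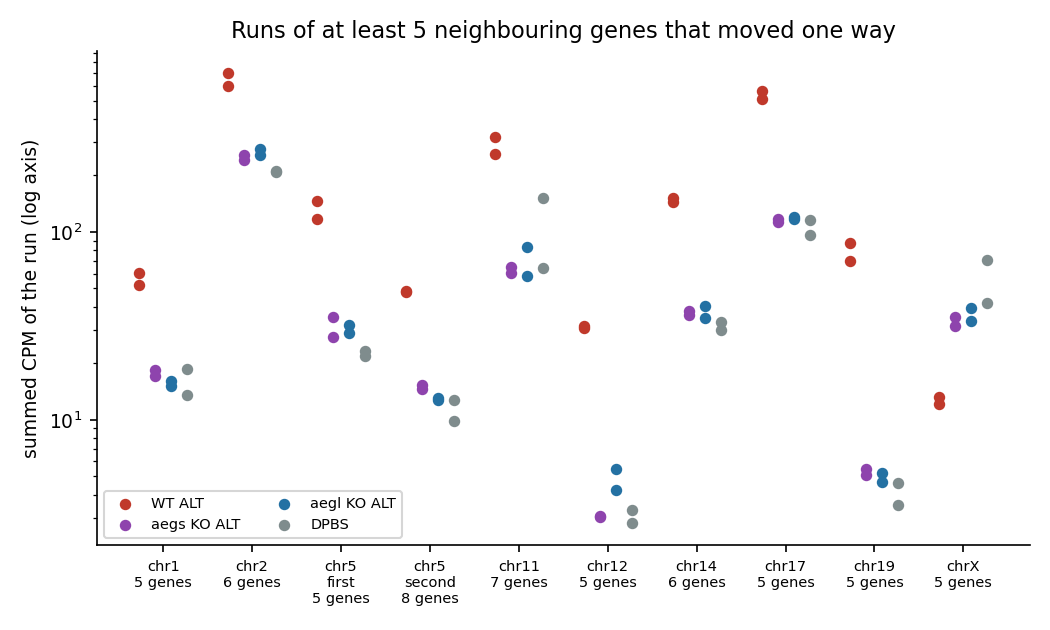
Summed CPM of each run of at least 5 neighbouring genes, on a log axis, one point per library, coloured by group and ordered by chromosome. The WT ALT points lie above all others in the 9 rising runs and below them in the run on the X chromosome.

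Windows of 1 Mb with at least 20 tested genes (219 on the autosomes, chromosome 18 not included) were ranked by their share of genes that rose or fell at least 2-fold, which 10.5% and 11.7% of all genes did. The windows given were picked as the extremes, so their Lung3 counts are a description. In Lung1, 12.9% of autosomal genes rose and 12.2% fell at least 2-fold. The highest share of rises was at chr11:83000001-84000000, where 14 of 32 genes rose and 4 fell, and in Lung1 13 of the 32 rose. Next came chr15:101000001-102000000, where 9 of 22 rose and 2 fell, with 7 and 2 of 20 in Lung1. Its median log2 change was 0.88 in Lung3 and 0.29 in Lung1. At chr8:94000001-95000000, 12 of 35 rose and 1 fell, with 13 and 2 in Lung1. The highest share of falls was at chr13:67000001-68000000, where 14 of 30 genes fell at least 2-fold and 0 rose, and 14 of 27 fell with 0 rises in Lung1. At chr5:138000001-139000000, 8 of 21 fell with 0 rises, and in Lung1 7 of 19.

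Lung1 holds the extract against DPBS in libraries of its own. Of 1921 genes that rose at least 2-fold in Lung3 and were tested in Lung1, 1904 lay higher with ALT there, 1797 were called higher (background 28.5%) and 1 was called lower. Of 2192 that fell, 2183 lay lower and 2079 were called lower (background 30.1%), with 0 called higher. Their median log2 changes in Lung1 were 1.52 (quartiles 1.06 and 2.30) and −1.24 (−1.68 and −0.91), beside −0.01 over all 17801 genes. Of the 2006 risers of Lung3, 228 had up to 0.1 CPM in its DPBS libraries. Where such genes were near 0 in the Lung1 mock too, they entered that test through its ALT libraries and could hardly be called lower. The calls of these genes in Lung1 are no support. Taken the other way, 2219 genes that rose at least 2-fold in Lung1 had a median of 1.81 in Lung3 (1.68 without DPBS 2), against 1.72 in Lung1 itself over 2282 genes. For 2169 genes that fell in Lung1 the median in Lung3 was −1.45 (−1.43 without DPBS 2), against −1.45 in Lung1 over 2173.

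Of genes tested in both experiments, 2711 rose in both, which is 94.4% of the Lung3 rises and 54.0% of the Lung1 rises. The limit on rising genes near 0 in the mock applies to these shares too. Falls in both numbered 3301, which is 93.2% of the Lung3 falls and 61.7% of the Lung1 falls. Across 17591 genes, log2 changes correlated at Pearson's r 0.871 and Spearman's rho 0.863, or 0.846 and 0.866 without DPBS 2. Genes are not independent replicates, and each r is a description. The change itself was tested between the experiments in a joint fit of 20159 genes. It called 0 genes (0.00%) with edgeR and 0 with DESeq2, with 1057 genes at an unadjusted p under 0.05 in edgeR. The smallest adjusted p was 0.7954. With DPBS 2 alone as the Lung3 mock, 4623 genes differed, and without DPBS 2 there were 0. This does not show that the changes were equal.

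**Figure D5:**
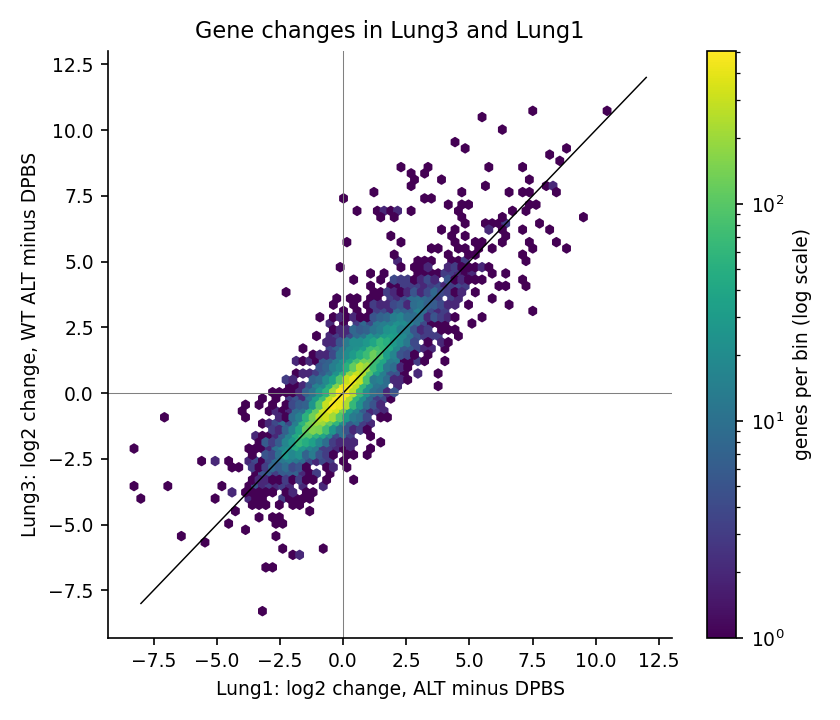
Log2 change of each gene in Lung3 (WT ALT minus DPBS, vertical axis) against Lung1 (ALT minus DPBS, horizontal axis), 17591 genes in hexagonal bins coloured by gene number. The bins follow the line of equal change, with Pearson's r of 0.871 across genes.

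The genes that moved under the WT extract were also read in experiments with other stimuli or mice. Under Aeg-S/L in Lung2, genes that rose at least 2-fold in Lung3 had a median log2 change of 1.64, with 1564 of 1952 called higher (background 19.1%) and 0 lower. Those that fell had a median of −1.26, with 1759 of 2227 called lower (background 19.7%) and 7 higher. Under Aeg-S alone the 2 medians were 0.03 and −0.02, and under Aeg-L alone 0.04 and −0.01. In IL-33 knockout mice given ALT, the risers had a median of 0.79, with 258 of 1783 called higher (background 2.40%), and the fallers −0.46, with 57 of 2155 called lower (background 0.518%). With Aeg-S/L in IL-33 knockout mice the medians were 0.82, with 528 of 1783 called higher (background 6.40%), and −0.46, with 291 of 2155 called lower (background 4.53%). Calls the other way with Aeg-S/L were 18 risers lower (background 4.53%) and 20 fallers higher (background 6.40%). With ALT in these mice they were 0 risers lower (background 0.518%) and 4 fallers higher (background 2.40%). Risers near 0 in the mock of an experiment entered its test mostly through treated libraries, so their calls are no support. Differences between these experiments and Lung3 were not tested.

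The knockout extracts of Lung3 share libraries with the main contrast, so their values are set side by side. Over the 2006 risers, the median log2 change against DPBS was 1.89 with WT ALT, 0.28 with aegs KO ALT and 0.33 with aegl KO ALT. Over the 2233 fallers it was −1.47, −0.20 and −0.22 in that order. These 3 medians use the same DPBS libraries that chose the lists. Set directly against the knockout extracts, WT ALT raised 2515 genes and lowered 2992 relative to aegs KO ALT (13.2% and 15.7%), and raised 2416 and lowered 2899 relative to aegl KO ALT (12.7% and 15.2%). Without DPBS 2, these totals of 5507 and 5315 became 9265 and 9071.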

How the data were processed

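Per the labels, RNA was extracted with a TIANGEN kit and libraries were made with a NEBNext Ultra RNA kit, a kit that keeps no strand information. Per the submitters' processing notes, HISAT2 2.2.1, SAMtools, featureCounts 2.0.2, DESeq2 1.36.0 and R 4.2.2 were used, with mm10 for mouse. No source used here states how strand was set in counting. The authors deposited raw counts per gene, used here as they stand, with the gene position, exons and length that the deposited tables carry.

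All 8 Lung3 libraries entered one fit in edgeR 4.0.16 (R 4.3.3): filterByExpr, TMM scaling, 1 coefficient per group, the quasi-likelihood F test and Benjamini-Hochberg adjustment over all genes tested. Standard errors were derived from the F statistic (log2 change over its root). Lung1, Lung2 and IL33KO1 were fitted on their own, and Lung1 jointly with Lung3 for the difference of changes. The fit was also run on simulated data in which no library stood apart, so that run does not bear on the effect of DPBS 2. Named IDs are the 2 largest rises and 2 largest falls among called genes that averaged at least 1 CPM where higher and whose libraries did not overlap. The reference tables named 0 of 55401 mouse IDs, so 40 gene lists were not analysed. No 2 libraries of a group held equal counts (chi-square per degree of freedom 8.92 to 201 in Lung3). Groups, lists, classes and runs were chosen with earlier results of these data known. Alternatives were DESeq2 1.42.0, DESeq2 size factors, no filter, a replicate block, only the 4 compared libraries, and each library left out. Depth of at least 29.6 M limits values near 0.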

Additional observations from a re-analysis of the deposited data

How the results depend on the processing

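With the 4 WT ALT and DPBS libraries alone, 3173 genes were called in place of 6539. Leaving out 1 library gave 3228 to 10266, and where a group kept 1 library it was assumed to vary like the others. Against aegs KO ALT the total of 5507 ran between 2297 and 9265, and against aegl KO ALT the total of 5315 ran between 2209 and 9071, the highest of each without DPBS 2, a setting chosen after seeing the data. The difference from Lung1 ran between 0 and 4623, and was 24 genes without the low-count filter. Replicate numbers did not pair the libraries (correlations of deviations between −0.0807 and 0.0355), and with a replicate block the 4 counts were 5881, 5001, 4750 and 0. ENSMUSG00000022997.9 lost its call with DESeq2 (log2 change 10.14, adjusted p = 0.08082), while the other 3 IDs kept theirs under the 9 alternatives run. The share of X-linked falls ran between 9.98% and 18.4% with 1 library left out. No fitted change of the 4 IDs and no Lung1 median changed sign, but rises of at least 2-fold, fewer than falls in the report, outnumbered them with DESeq2, with DESeq2 size factors and without DPBS 1 (3081 against 2987). The 35 genes near 0 in DPBS rest on few counts.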
